A study of Mus musculus with 18 samples.

Results

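Expression of 10 genes of cardiac calcium handling was examined in hearts after a single dose of ionizing radiation (IR). The genes were taken by name, through their Ensembl identifiers, and the rule used no measured value, although the list was drawn up with earlier results of these data known. They are *Ryr2*, *Casq2*, *Trdn* and *Jph2* of the calcium release unit, *Atp2a2*, *Pln* and *Sln* of the calcium pump, *Cacna1c* and *Slc8a1* of the plasma membrane, and the kinase gene *Camk2d*. They were 10 of 30072 genes with values, and all 10 were among the 15054 genes that passed the filter on low values and were tested. RNA came from the septum of the heart of CD-1 mice, male and female littermates of at least 8 weeks of age, with 6 mice in each of 3 groups. Control mice (ctrl) received isoflurane anesthesia and, by the study's methods, CT imaging as a sham treatment without IR, and the 2wk and 6wk mice received 25 Gy once under the same anesthesia and were studied 2 and 6 weeks later. The labels call the controls untreated and the radiation gamma, the study's methods call the radiation X-rays and the tissue ventricular, and no label gives the sex or litter of a single mouse.

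In a heart muscle cell, a small entry of calcium through the L-type channel opens ryanodine receptors on the sarcoplasmic reticulum (SR), and the calcium released from this store starts contraction. Relaxation follows when the SERCA pump returns calcium to the SR and the sodium-calcium exchanger carries the rest out of the cell. Phospholamban and sarcolipin are small membrane proteins that restrain SERCA, and the kinase CaMKII phosphorylates phospholamban, the ryanodine receptor and the L-type channel.

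At 6 weeks post-IR, 9 of the 10 genes were called lower than in controls, and *Sln* did not pass the test. *Camk2d* had the smallest of these changes and fell by 15.6%, and *Casq2* had the largest and fell by 39.8%. Among all genes tested, 11.5% were called lower and 13.5% higher in the same comparison (edgeR quasi-likelihood test, Benjamini-Hochberg adjusted P under 0.05). At 2 weeks post-IR only *Pln* was called lower, where 1.93% of all genes were called lower and 3.09% higher. These are changes relative to the typical gene: TMM scaling (trimmed mean of M-values) sets counts of different mice on 1 scale by holding most genes near no change. Without that step, with library size alone, *Ryr2* was the 1 member still called lower at 6 weeks. The 10 markers of cardiomyocytes had a median log2 fold change of -0.45 at 6 weeks, and their part in the members' values was not tested.

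The RNA was that of heart muscle. All 10 cardiomyocyte markers (*Myh6*, *Ttn*, *Tnnt2* and others) were tested, and their summed abundance lay between 32051 and 43959 TPM (transcript abundance, scaled to length and depth) across mice. Summed skeletal muscle markers lay between 0.548 and 2.07 TPM. Atrial markers varied from mouse to mouse in every group, with a summed level of 141 to 2418 TPM, and this touches *Sln* below. Total counts were 11522987 to 15501019 per mouse, at which a floor of 3 counts was 0.194 to 0.26 CPM (counts scaled to library size) and covers counting error only. TMM factors were 0.844 to 0.991 in controls, 0.962 to 1.03 at 2 weeks and 1.04 to 1.13 at 6 weeks. The share of counts from mitochondrially encoded genes had medians of 23.2%, 20.2% and 17.4% in that order.

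Sequence just before the transcript start was read from RefSeq (GRCm38.p6), which gave a start for 7 of the 10 genes and none for *Atp2a2*, *Sln* and *Trdn*. Windows of 250 bases are printed for 3 genes on which the comparisons turn: *Ryr2*, called lower at 6 weeks under every scaling, *Pln*, the member called lower at 2 weeks, and *Casq2*, which had the largest change among the members called lower at 6 weeks. Bases are 5′ to 3′ on the strand of the gene, and capitals mark a match of TATAAA, of a MEF2 box or of the short motif GATAA on either strand. The windows are chr13:12106946-12107195 (minus strand) for *Ryr2*, chr10:53337436-53337685 (plus strand) for *Pln* and chr3:102086165-102086414 (plus strand) for *Casq2*. The RefSeq start of *Pln* lies past the GENCODE gene start at 53337667 given below, so the end of its window falls inside the gene as placed there.
Ryr2: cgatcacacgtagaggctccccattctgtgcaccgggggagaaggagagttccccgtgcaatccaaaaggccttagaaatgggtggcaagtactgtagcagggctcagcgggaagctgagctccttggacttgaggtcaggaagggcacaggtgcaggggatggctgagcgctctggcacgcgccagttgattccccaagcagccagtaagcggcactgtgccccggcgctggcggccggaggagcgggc
Pln: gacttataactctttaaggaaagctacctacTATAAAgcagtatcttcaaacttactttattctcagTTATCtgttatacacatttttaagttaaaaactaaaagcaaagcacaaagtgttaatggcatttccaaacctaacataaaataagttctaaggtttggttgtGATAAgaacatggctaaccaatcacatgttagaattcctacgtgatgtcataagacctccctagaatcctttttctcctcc
Casq2: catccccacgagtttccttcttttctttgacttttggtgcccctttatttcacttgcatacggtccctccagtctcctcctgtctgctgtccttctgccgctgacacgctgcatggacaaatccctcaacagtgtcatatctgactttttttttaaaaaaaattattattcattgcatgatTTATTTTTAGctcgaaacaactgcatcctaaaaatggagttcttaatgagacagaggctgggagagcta
The windows differ in composition, with 63.2% G and C for *Ryr2*, 32.8% for *Pln* and 41.6% for *Casq2*, beside a median of 52.4% over 32851 such windows. *Pln* held 1 TATAAA and 2 GATAA matches, and *Casq2* held 1 MEF2 box. Of all windows, 12.4% held TATAAA, 22.6% GATAA and 2.92% a MEF2 box. None of the capitalised motifs was in the *Ryr2* window, which held 2 matches of the E-box CANNTG, a motif in 66.2% of all windows. Over the 7 genes, 6 had an E-box, 2 had GATAA (*Pln* and *Slc8a1*), 1 each had TATAAA and a MEF2 box, and CATTCC (12.6% of all windows) and the CArG box (1.47%) were not found in these windows. Letters that match a motif are a description and not evidence of binding.

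Levels can be compared between genes only per transcript length, in TPM. In control mice, *Atp2a2* was highest at 2728 ± 239 TPM (SD, n = 6), followed by *Pln* at 2374 ± 200 TPM. *Casq2* (162 ± 39.5), *Ryr2* (147 ± 11.5), *Slc8a1* (130 ± 11.3), *Jph2* (112 ± 11.4) and *Cacna1c* (105 ± 17.2 TPM) followed. *Camk2d* (76.8 ± 5.94), *Sln* (46.3 ± 43.2) and *Trdn* (31.6 ± 1.56 TPM) were lowest. Ranges over mice did not overlap between *Pln* and *Casq2* or between *Cacna1c* and *Camk2d*, and all other neighbours in this order overlapped. The pump and its inhibitor stood apart from the other members. Within each control mouse *Atp2a2* was above *Pln* (ratio of *Pln* to *Atp2a2* at most 0.968), *Ryr2* above *Slc8a1* and *Slc8a1* above *Jph2*. *Casq2* lay above *Ryr2* and *Slc8a1* in some control mice and below them in others, and could not be ordered against them.

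*Ryr2* encodes the cardiac ryanodine receptor, the release channel of the SR, and lies on the minus strand at chr13:11553102-12106945 (protein coding, GRCm38). Its expression in controls ranged from 2232 to 3099 CPM with a median of 2572. At 2 weeks post-IR it ranged from 1899 to 2346 CPM (median 2099), and at 6 weeks from 1534 to 2195 CPM (median 1599). All 6 mice at 6 weeks lay below every control, and 4 of 6 did so at 2 weeks. The log2 fold change was -0.60 ± 0.095 (SE) at 6 weeks (adjusted P = 0.000168), so that *Ryr2* fell by 34.2%, and -0.29 ± 0.095 at 2 weeks (adjusted P = 0.0879), which did not pass. *Ryr2* was the member whose call at 6 weeks held under every scaling tried, at -0.34 with library size only (adjusted P = 0.00201), -0.26 when scaled to cardiomyocyte markers (adjusted P = 0.00732) and -0.21 on log2(TPM + 1) by limma (adjusted P = 0.0243).

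*Casq2* encodes cardiac calsequestrin, which binds calcium inside the SR, and lies on the plus strand at chr3:102086415-102146514. It varied widely among mice, from 209 to 571 CPM in controls (median 414), 253 to 509 CPM at 2 weeks (median 351) and 175 to 288 CPM at 6 weeks (median 250.04). Only 2 of 6 mice at 6 weeks lay below every control. The log2 fold change was -0.73 ± 0.20 at 6 weeks (adjusted P = 0.0114) and -0.05 ± 0.20 at 2 weeks (adjusted P = 0.924). Between 2 and 6 weeks it was -0.69 ± 0.20 and did not pass (adjusted P = 0.053).

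*Trdn* encodes triadin, which anchors calsequestrin to the ryanodine receptor, and lies on the plus strand at chr10:33080554-33476709. Its control values of 132 to 171 CPM (median 147) did not overlap with the 111 to 124 CPM at 2 weeks (median 119) or the 69.99 to 131 CPM at 6 weeks (median 107). The mice at both times were therefore all below all controls, but only the 6-week difference was called (log2 fold change -0.49 ± 0.10, adjusted P = 0.00175), and at 2 weeks it was -0.31 ± 0.10 (adjusted P = 0.0857).

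*Jph2* encodes junctophilin 2, which ties the SR to the plasma membrane, and lies on the minus strand at chr2:163336242-163397993. Controls ranged from 491 to 714 CPM (median 660), mice at 2 weeks from 577 to 676 CPM (median 611) and mice at 6 weeks from 477 to 538 CPM (median 514). The 6-week mice lay wholly below the 2-week mice, a lack of overlap that 3.54% of all genes showed, but not wholly below the controls. The log2 fold change from controls was -0.33 ± 0.076 at 6 weeks (adjusted P = 0.00332) and -0.05 ± 0.076 at 2 weeks (adjusted P = 0.762). *Jph2* was the 1 member called between the times, at -0.28 ± 0.076 (adjusted P = 0.0385), where 2.01% of all genes were called lower, 3.31% higher and 5.33% in either direction. The call stood near the threshold, with a log2 fold change of -0.30 to -0.26 over the 18 fits without 1 mouse. It was lost without any 1 of the 2-week mice 1, 2, 4, 5 and 6 or the 6-week mice 1, 3, 5 and 6 (adjusted P up to 0.0921). It was also lost with library size only, cardiomyocyte marker scaling or TPM. The 10 cardiomyocyte markers had a median of -0.28 in the same comparison (1 called lower, *Actc1*, and 6 at an unadjusted P under 0.05), and scaled to them *Jph2* was at 0.023.

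**Figure D1:**
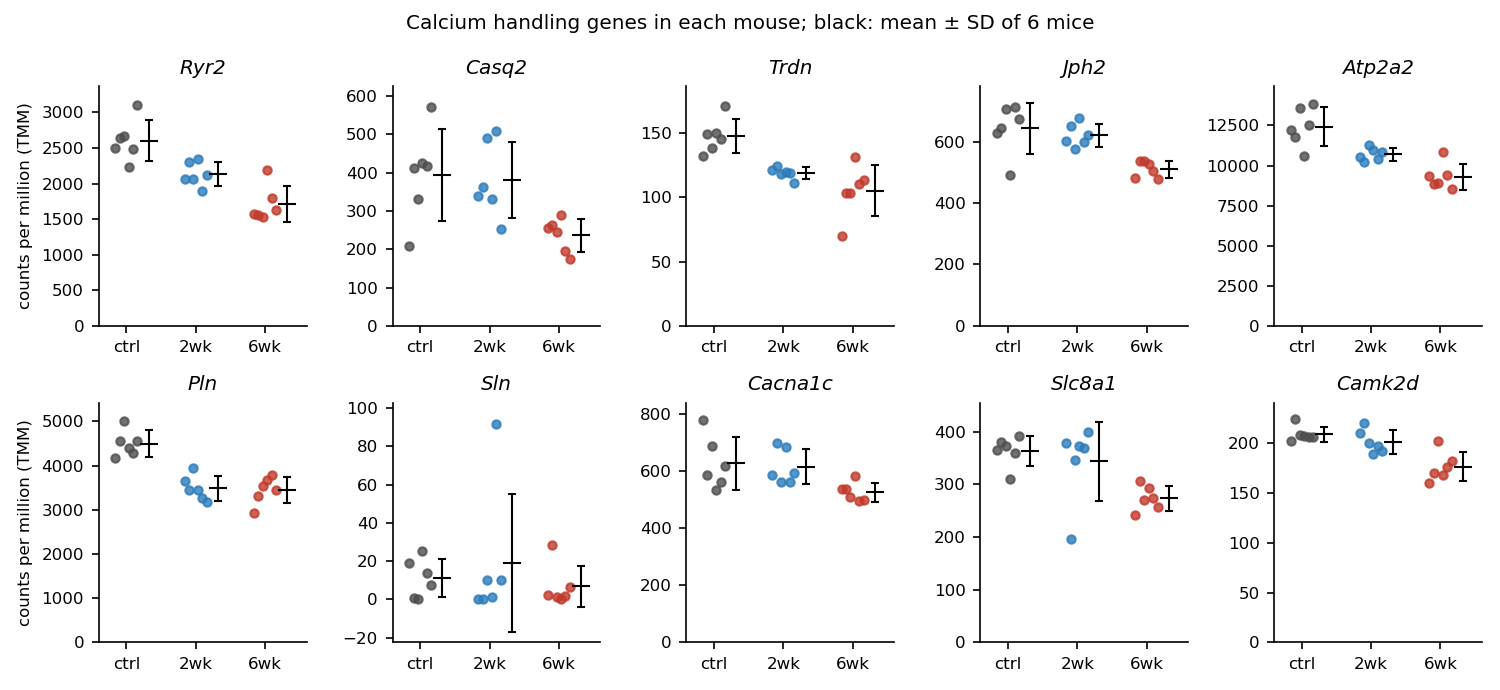
Expression of the 10 genes in each mouse, in CPM after TMM scaling on the vertical axis (starting at 0 except for Sln, where the SD reaches below 0), by group on the horizontal axis. Points are mice, and black marks are the mean ± SD of 6 mice. Pln and Trdn at 2 weeks and Ryr2, Pln, Trdn, Slc8a1 and Camk2d at 6 weeks do not overlap with controls, and Sln spreads widely in every group.

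*Atp2a2* encodes SERCA2, the pump that refills the SR, and lies on the minus strand at chr5:122453513-122502225. Controls ranged from 10604 to 13844 CPM (median 12374), 2-week mice from 10219.7 to 11284 (median 10682) and 6-week mice from 8538 to 10833 CPM (median 9109). Of the 6-week mice, 5 of 6 lay below every control, and the remaining mouse fell inside their range. The log2 fold change was -0.42 ± 0.09 at 6 weeks (adjusted P = 0.00207) and -0.21 ± 0.089 at 2 weeks (adjusted P = 0.179). On the TPM scale the means were 2728 ± 239, 2788 ± 199 and 2688 ± 173 in controls, at 2 weeks and at 6 weeks, and the 6-week log2 difference was -0.02 (limma, adjusted P = 0.846).

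*Pln* encodes phospholamban, the main restraint on SERCA2 in ventricle, and lies on the plus strand at chr10:53337667-53345987. Controls ranged from 4171 to 5015 CPM (median 4474), 2-week mice from 3171 to 3945 (median 3447) and 6-week mice from 2938 to 3781 CPM (median 3497). Both irradiated groups lay wholly below controls and overlapped with each other. *Pln* was the 1 member called at 2 weeks, with a log2 fold change of -0.37 ± 0.078 (adjusted P = 0.0118), in a comparison that called 5.02% of all genes in either direction. At 6 weeks it was -0.38 ± 0.078 (adjusted P = 0.00145), and the difference between the times was -0.02 ± 0.078 (adjusted P = 0.943). The 2-week call was lost with library size only (-0.21, adjusted P = 0.0606) and on log2(TPM + 1) (-0.08, adjusted P = 0.465).

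*Sln* encodes sarcolipin, an atrial inhibitor of SERCA, and lies on the plus strand at chr9:53850164-53854560. Values ran from 0.463 to 25.5 CPM in controls (median 10.8), from 0 to 91.6 CPM at 2 weeks (median 5.69) and from 0.0741 to 28.5 CPM at 6 weeks (median 2.03), so that each group spanned from near the floor of 3 counts to well above it. The count of 0 in 1 mouse at 2 weeks allows a level up to that floor. No difference was called (log2 fold change 0.73 ± 1.07 at 2 weeks, adjusted P = 0.754, and -0.75 ± 1.14 at 6 weeks, adjusted P = 0.689). The direction at 2 weeks turned with the tool, to -1.42 by limma voom and, without the 2-week mouse at 91.6 CPM, to -1.38 in edgeR. With an SE above 1 on the log2 scale, changes of the size seen in the other members were not detectable.

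Levels of *Sln* followed atrial myosin light chains from mouse to mouse. Across the 18 mice, log2(TPM + 0.1) of *Sln* correlated with *Myl7* (Pearson r = 0.977, Spearman rho = 0.988), *Myl4* (r = 0.972, rho = 0.983) and *Dkk3* (r = 0.877, rho = 0.93), each with a permutation P of 1e-05 for both measures, the smallest that 100000 permutations can give, and 2e-05 after adjustment over the 6 markers. Without the 2 mice farthest from the median of the marker, r was 0.96, 0.974 and 0.9. Within controls, 2-week mice and 6-week mice r with *Myl7* was 0.987, 0.993 and 0.973. *Nppa* had r = 0.512 (permutation P = 0.0296, adjusted 0.0444) and rho = 0.47 (P = 0.0518, adjusted 0.0777), with r = 0.338 without its 2 farthest mice. *Kcnj3* (r = 0.297, permutation P = 0.233, adjusted 0.279) and *Bmp10* (r = 0.167, P = 0.522, adjusted 0.522), whose rho values were 0.245 and 0.0969, were not related in this test. *Bmp10* was at 0 TPM in all but 3 mice and is the defining atrial marker not detected in most samples. In the mouse with the most *Sln* (409 TPM, 2 weeks), *Myl7* was 865 TPM, and in the mouse with none, it was 0.219 TPM. With the mean of the atrial markers as a covariate the *Sln* differences were -0.08 at 2 weeks and 0.17 at 6 weeks. That mean includes *Myl7*, *Myl4* and *Dkk3*, so small differences are built in by the correlations above and are no separate support. Among all genes tested, *Myl4* and *Myl7* were the ones most like *Sln* in log2 CPM (r = 0.985 and 0.977).

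**Figure D2:**
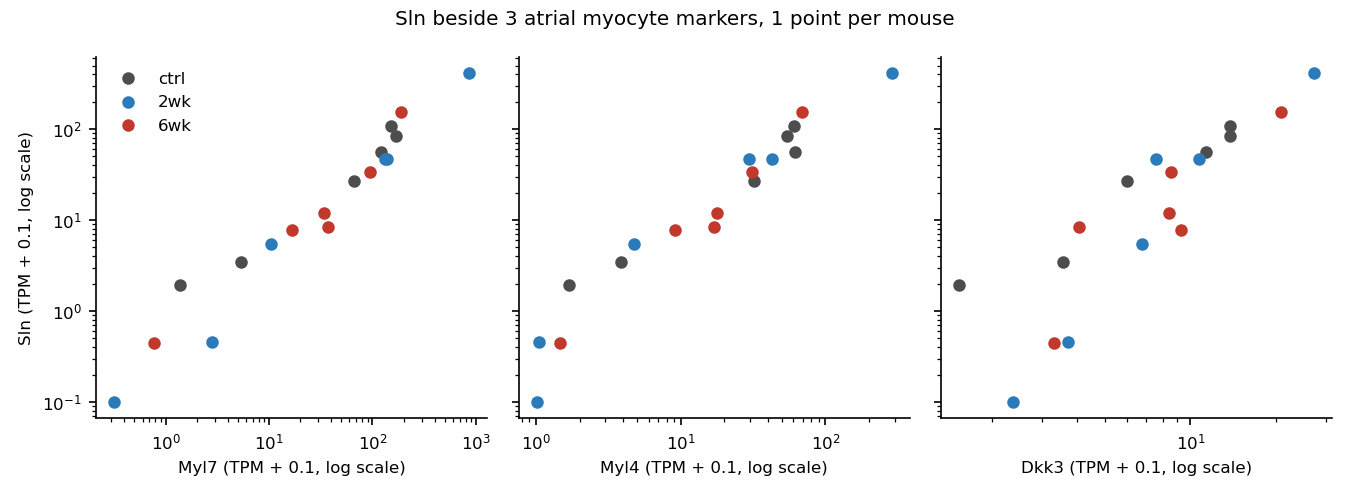
Abundance of Sln (vertical axis) against the atrial markers Myl7, Myl4 and Dkk3 (horizontal axes), all in TPM + 0.1 on log scales, with 1 point per mouse coloured by group. Mice of the 3 groups lie along 1 line for Myl7, from the mouse without Sln to the 2-week mouse with 409 TPM.

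*Cacna1c* encodes the pore of the L-type calcium channel and lies on the minus strand at chr6:118587240-119196418. Controls ranged from 531 to 777 CPM (median 600.2), 2-week mice from 562 to 699 (median 588) and 6-week mice from 494 to 582 CPM (median 522). Of the 6-week mice, 3 lay below every control. The log2 fold change was -0.25 ± 0.087 at 6 weeks (adjusted P = 0.0412) and -0.03 ± 0.087 at 2 weeks (adjusted P = 0.893). This call was lost without any 1 of 8 mice (controls 1, 3 and 6 and 6-week mice 1, 2, 3, 5 and 6, adjusted P up to 0.103), with upper quartile scaling (adjusted P = 0.0511) and without the filter (adjusted P = 0.0523). The direction changed on TPM, where *Cacna1c* was higher than in controls at both times (0.33, adjusted P = 0.019, and 0.24, adjusted P = 0.03, by limma on log2(TPM + 1)). The median of all genes was itself at 0.18 and 0.29 on that scale, so that relative to it *Cacna1c* was at 0.15 at 2 weeks and -0.04 at 6 weeks.

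*Slc8a1* encodes the sodium-calcium exchanger NCX1 and lies on the minus strand at chr17:81373105-81738377. Controls ranged from 309 to 391 CPM (median 369), 2-week mice from 196 to 400.2 (median 371) and 6-week mice from 241 to 306 CPM (median 272). The 6-week mice were all below controls, with a log2 fold change of -0.41 ± 0.12 (adjusted P = 0.0207). At 2 weeks it was -0.08 ± 0.12 (adjusted P = 0.777), a value drawn down by 1 mouse at 196 CPM when the next lowest was at 347. Without this mouse it was 0.04, and the difference between 6 and 2 weeks went from -0.33 (adjusted P = 0.124) to -0.45 (adjusted P = 0.00486).

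*Camk2d* encodes the main cardiac isoform of CaMKII and lies on the plus strand at chr3:126596302-126846326. Controls ranged from 202 to 224 CPM (median 207), 2-week mice from 188 to 219.9 (median 199) and 6-week mice from 159.97 to 201 CPM (median 173). All 6-week mice lay below all controls, the highest of them just under the lowest control, and the log2 fold change was -0.24 ± 0.056 (adjusted P = 0.00368). At 2 weeks it was -0.05 ± 0.056 (adjusted P = 0.64) and between the times -0.19 ± 0.056 (adjusted P = 0.0547).

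**Figure D3:**
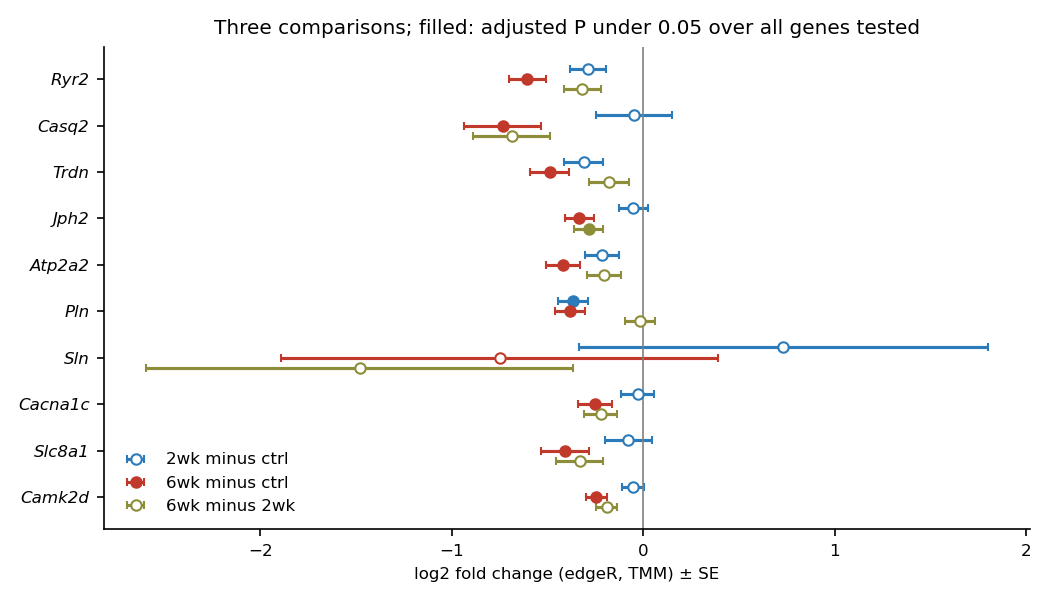
Log2 fold changes (horizontal axis) of the 10 genes ± SE for 2wk minus ctrl, 6wk minus ctrl and 6wk minus 2wk, from 1 edgeR fit with TMM scaling. Filled points passed an adjusted P under 0.05. The filled points are 9 for 6wk minus ctrl, 1 for 2wk minus ctrl (Pln) and 1 for 6wk minus 2wk (Jph2).

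The 10 members had a median log2 fold change of -0.41 at 6 weeks, beside -0.02 over all genes tested, and -0.07 at 2 weeks, beside a median within 0.01 of 0 over all genes. None changed by more than 1 on the log2 scale with a call, where 0.903% of all genes did at 2 weeks, 5.95% at 6 weeks and 1.14% between the times. In CPM, 5 of 10 members did not overlap with controls at 6 weeks (*Ryr2*, *Pln*, *Trdn*, *Camk2d* and *Slc8a1*) and 2 of 10 did not at 2 weeks (*Pln* and *Trdn*), beside 9.23% and 3.24% of all genes. Leaving out each of the 18 mice in turn left 8 or 9 members called lower at 6 weeks, and only *Cacna1c* lost its call. Both irradiated groups were compared with the same controls, for which no label gives a time of collection. The study's methods call controls age-matched, but to which of the times is not stated. Age and time of collection therefore cannot be told apart from IR in these comparisons.

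The cardiomyocyte markers moved with the members. At 6 weeks 7 of 10 were called lower (*Myh6* at -0.46, *Actc1* at -0.61), and at 2 weeks none was called by edgeR (2 at an unadjusted P under 0.05, 1 called by DESeq2) and the median was -0.18. Without control 3 or 6-week mouse 6 the 6-week count fell to 3, and without control 6 to 4. In TPM their sum was 32051 to 43959 in controls and 35158 to 39818 at 6 weeks. The marker calls were relative to the typical gene. With library size only 1 of 10 was called lower, and on log2(TPM + 1) 0 were lower and 1 higher. The number of cardiomyocytes, the RNA of each and the RNA of other cells cannot be told apart in bulk tissue. Macrophage markers moved the other way, with 5 of 5 called higher at 6 weeks (*C1qa* at 1.24), a median of 0.77 and summed levels of 36.6 to 103 TPM in controls and 122 to 196 TPM at 6 weeks. Of 6 endothelial markers 2 were higher and 2 lower (summed 180 to 261 TPM in controls and 292 to 421 TPM at 6 weeks), of 6 fibroblast markers 1 was lower (*Pdgfra*), and of 6 smooth muscle and pericyte markers none was called by edgeR, DESeq2 or voom, with 0 at an unadjusted P under 0.05. The part of these cells in the members' values was not tested.

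The size of the change depended on what expression was scaled to. With library size only, 1 of 10 members was called lower at 6 weeks (*Ryr2*), beside 2.17% of all genes lower and 36.5% higher. Scaled to the summed cardiomyocyte markers, again only *Ryr2* was called lower, beside 1.25% of all genes lower and 44.9% higher. On log2(TPM + 1), *Ryr2* was lower and *Cacna1c* higher, beside 0.784% and 48.9% of all genes. The median of all genes shifted by 0.24, 0.32 and 0.29 in these scalings. Members with a value below 0 numbered 8, 7 and 6 of 10 under library size, marker scaling and TPM, *Sln* included. A scaling moves all genes of a mouse alike, so the distance of a member from the median of all genes stays nearly fixed between the 3 scalings of counts and is no separate support. Scaled to cardiomyocyte markers, *Pln* was at 0.29 between 6 and 2 weeks (adjusted P = 0.0118, called higher), beside 42.3% of all genes called higher and a median of 0.30 over all genes, from which *Pln* differed by -0.02.

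**Figure D4:**
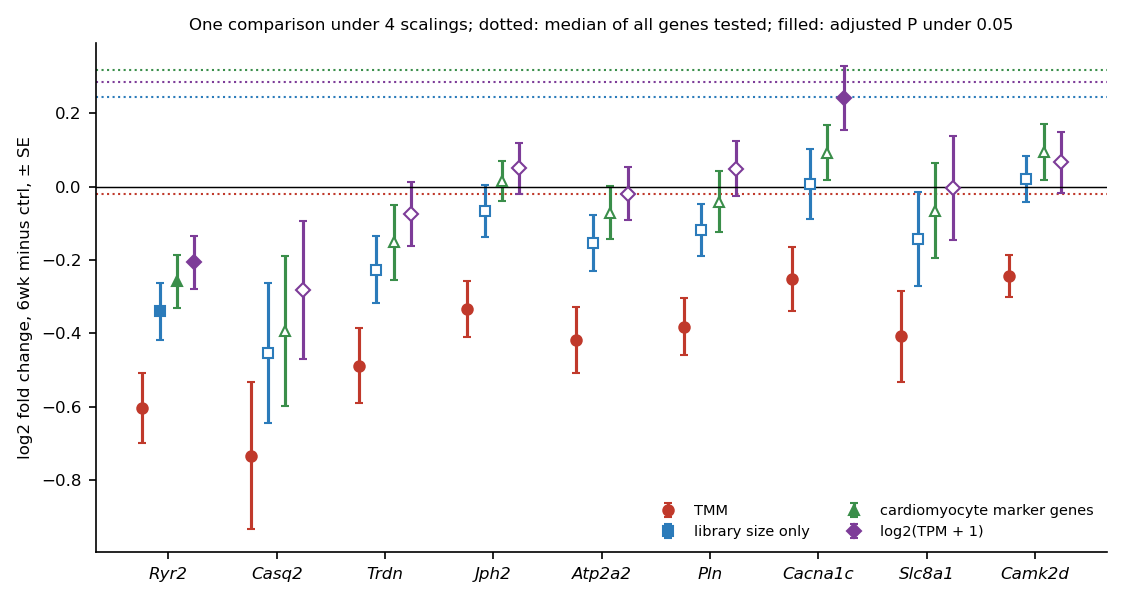
Log2 fold change of 9 members (without Sln) at 6wk minus ctrl ± SE under TMM, library size only, scaling to cardiomyocyte marker genes, and log2(TPM + 1). Dotted lines are the medians of all genes tested, near 0 for TMM and between 0.24 and 0.32 for the others, and filled points passed an adjusted P under 0.05. Only Ryr2 is filled and below 0 in all 4, and a scaling moves points and dotted line nearly alike.

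Ratios within a mouse do not depend on scaling between mice, and 5 members were set against *Atp2a2* in TPM. The log2 ratio of *Ryr2* to *Atp2a2* was -4.21 ± 0.058 (SD, n = 6) in controls and -4.40 ± 0.092 at 6 weeks, a difference of -0.19 (exact permutation P = 0.00433, two-sided, adjusted P = 0.0649 over 15 tests). That of *Pln* to *Atp2a2*, the stoichiometry of pump and inhibitor transcripts, was -0.20 ± 0.15 in controls, -0.31 ± 0.11 at 2 weeks and -0.13 ± 0.14 at 6 weeks. Between 6 and 2 weeks it differed by 0.18 (exact permutation P = 0.0346, adjusted P = 0.26). These 2 tests had an unadjusted P under 0.05, none of the 15 passed after adjustment, and the smallest P that 6 against 6 mice allow is 0.00216.

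From mouse to mouse the members other than *Sln* were all positively correlated in log2 CPM over the 18 mice (36 of 36 pairs, Pearson r of 0.163 to 0.937, median 0.561), the groups included. Taken as deviations from the group means, 27 of 36 pairs remained above 0 (median 0.151), led by *Ryr2* and *Atp2a2* at 0.759. The values of all genes in a mouse share 1 library and 1 scaling factor, so these values are descriptions. The genes most like each member over all 18 mice were *Pcca* (r = 0.966) and *Mdh1* (0.958) for *Ryr2*, *Mdh1* (0.939) and *Atp5f1* (0.938) for *Atp2a2*, and *Fundc2* (0.91) and *Jam2* (0.909) for *Pln*. For *Trdn* they were *Ghr* (0.92) and *Mme* (0.919), and for *Jph2* *Fem1a* (0.921) and *Esrra* (0.914). Likeness was weaker for *Casq2* (*Rpp14* at 0.867 and *Spr* at 0.795), *Cacna1c* (*Dach1* at 0.863 and *Dyrk1b* at 0.844), *Camk2d* (*Tnnt1* at 0.832 and *Meis2* at 0.818) and *Slc8a1* (*Thap3* at 0.818 and *Atp6v1g1* at 0.817).

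Other genes of calcium handling were sorted into 7 classes (82 listed, 79 with values, 78 tested). At 6 weeks 17 were lower and 6 higher than in controls, with a median log2 fold change of -0.18, beside the same 11.5% and 13.5% of all genes. Without control 6 or 6-week mouse 6, 10 rather than 17 were lower. At 2 weeks 1 was higher (*Bin1*) and 1 lower (*Cacna2d1*, not called without control 2 or 6 or 2-week mouse 1, 3 or 6). Between the times *Speg*, *Akap6*, *Cav3* and *Prkaca* were lower at 6 weeks and *Stim2* was higher, the last not called without any 1 of the 2-week mice or of the 6-week mice 1, 3, 5 and 6. The 6-week counts turned with the scaling, to 2 lower and 24 higher with library size only, 1 and 27 when scaled to cardiomyocyte markers and 0 and 33 on log2(TPM + 1), so that the directions that follow are relative to the typical gene.

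Of 21 genes of SR release and the dyad, the junction between SR and plasma membrane, 6 were lower and 1 higher. *Akap6*, a scaffold for kinases at the ryanodine receptor, was at -0.28 ± 0.05 (adjusted P = 0.000518), and *Hrc*, a calcium-binding protein of the SR lumen, at -0.49 ± 0.12 (adjusted P = 0.00513). *Bin1*, which shapes the transverse tubules, was at 6.97 ± 0.926 CPM (SD) in controls, 11.9 ± 1.76 at the earlier time and 13.7 ± 2.24 at the later one (log2 fold change 0.77 and 0.97, adjusted P = 0.00238 and 2.89e-05). Of 3 tested pump isoforms and small regulators none was called by edgeR, DESeq2 or voom. The skeletal muscle pump *Atp2a1*, the 1 gene of this class at an unadjusted P under 0.05, had a log2 fold change of -1.43 (adjusted P = 0.0676 by edgeR). Its low levels were 0.620 CPM in controls and 0.226 CPM at 6 weeks.

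Of 13 channel subunit genes, *Cacna2d1*, the auxiliary subunit of the L-type channel, was lower at both times (-0.34 ± 0.088 and -0.55 ± 0.088, adjusted P = 0.034 and 0.00018), *Rrad*, a small GTPase that restrains the channel, was lower at 6 weeks (-0.44 ± 0.16, adjusted P = 0.0463), and *Cacnb3*, a beta subunit, was higher (0.77 ± 0.17, adjusted P = 0.00262). Among 6 genes of extrusion only *Atp2b3*, a plasma membrane pump, was called (lower), at 0.499 ± 0.366 CPM in controls and 0.117 ± 0.118 at 6 weeks, near or below the floor of 3 counts. Of 18 genes of CaM kinases, protein kinase A and phosphatases, 6 were lower and none higher, led by *Prkaca*, the catalytic subunit of protein kinase A (-0.30 ± 0.055, adjusted P = 0.000546), *Camk2a* (-0.43 ± 0.093, adjusted P = 0.00244) and *Prkar2a* (-0.23 ± 0.054, adjusted P = 0.00375).

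The 3 called genes of IP3 receptors and store-operated entry (8 tested) were all higher at 6 weeks: *Stim2*, a sensor of store calcium (0.44 ± 0.084, adjusted P = 0.000886), and the channel genes *Orai2* (1.05 ± 0.25, adjusted P = 0.0046) and *Orai1* (0.33 ± 0.10, adjusted P = 0.0229). They stood at 33.9, 4.53 and 21.4 CPM at 6 weeks. Of 9 genes of mitochondrial calcium handling, *Mcub*, a subunit that dampens the uniporter, was higher (1.28 ± 0.34, adjusted P = 0.00836, at 0.265 ± 0.12 CPM in controls and 0.676 ± 0.228 at 6 weeks), and *Letm1* (-0.26 ± 0.085, adjusted P = 0.032) and *Micu3* (-0.46 ± 0.16, adjusted P = 0.0387) were lower. *Orai1*, *Orai2*, *Stim2* and *Mcub* rose at 6 weeks, as macrophage markers did, and the part of other cell types in them was not tested.

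**Figure D5:**
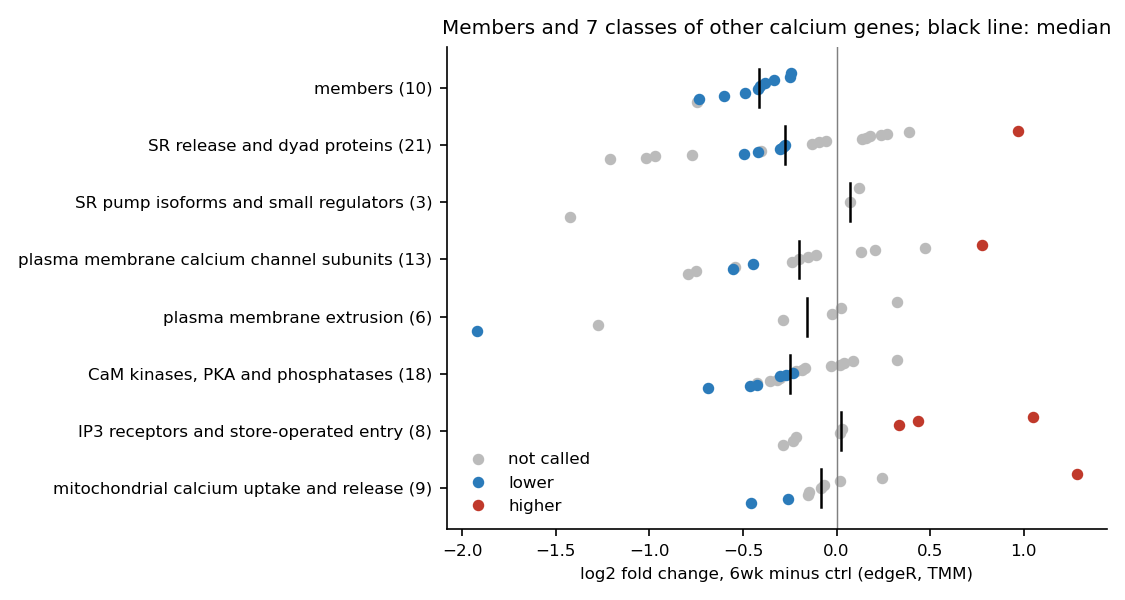
Log2 fold change at 6wk minus ctrl (horizontal axis, edgeR with TMM) of the members and of 7 classes of other calcium genes, with the number tested in brackets. Points are genes, coloured by call, and black lines are medians. The members lie between -0.75 and -0.24, and the called genes of store-operated entry are all to the right of 0.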

How the data were processed

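RNA from the septum of 18 mice was sequenced on an Illumina NovaSeq from KAPA libraries. The authors aligned reads with STAR to GRCm38, quantified them with Salmon (version 1.0 in the submitters' processing notes) and summed them to genes with tximport. The deposited estimated counts are not whole for every gene and were not normalized between mice by the authors. The deposited TPM values, made by the authors in the same step, take account of the length of transcripts and of depth inside 1 mouse, and add up to the same total in each, so a gene with a large share lowers the TPM of others.

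Rounded counts were fitted by edgeR 4.0.16 (R 4.3.3) in 1 quasi-likelihood model of the 3 groups with TMM scaling, two-sided and adjusted per comparison by Benjamini-Hochberg. The filter kept a gene that reached 0.23 CPM in 6 or more mice. SE is the absolute log2 fold change divided by the square root of F, and CPM values are TMM-scaled. Alternatives used DESeq2 1.42.0 and limma 3.58.1. TPM was tested as log2(TPM + 1). Log2 CPM for likeness used a prior count of 2. Coordinates are GENCODE M21 on GRCm38.

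The members, gene classes and marker lists were chosen with earlier results of these data known, and the relation of *Sln* to atrial markers was added after the data were seen. Named besides the members were the up to 3 genes of each class with the smallest adjusted P at 6 weeks, genes of counts of 5 or fewer, and the 2 genes most like each member. Each mouse was taken as a replicate. The labels do not state that replicate numbers pair mice, so no block was used in the main fit. Of 18 same-numbered pairs 2 correlated above 0.1, which cannot show that mice were unmatched. On simulated counts for 6wk minus ctrl over 15054 genes, 75 of 100 genes changed by 1 on the log2 scale and 31 of 100 changed by 0.5 were found. Of the unchanged genes, 10 were also called. Only 200 genes were changed there, where 3760 were called in the data, so these shares may not carry over.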

Additional observations from a re-analysis of the deposited data

Results flagged for a closer look

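Among 30 groups of 6 mice (10 genes by 3 groups), 5 held a mouse set apart by Dixon's criterion at the 95% level, where chance sets apart about 1 group in 20. *Sln* accounted for 2 of them, a 2-week mouse at 91.6 CPM when the next was at 10.4, and a 6-week mouse at 28.5 CPM when the next was at 6.55. *Slc8a1* was at 196 CPM in 1 mouse at 2 weeks when the next lowest was at 347. *Atp2a2* was at 10833 CPM in 1 mouse at 6 weeks when the next highest was at 9387. The same mouse had the highest *Ryr2*, *Casq2*, *Trdn* and *Cacna1c* of its group and the lowest *Sln*. *Camk2d* was at 224 CPM in 1 control when the next highest was at 208.

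*Jph2* had a log2 difference of -0.28 between 6 and 2 weeks post-IR in the edgeR test of the times against each other (adjusted P = 0.0385, lower in 6 of 6 mice than in all 2-week mice). The call was lost in 9 of 18 fits without 1 mouse, with the replicate number as a block (adjusted P = 0.0759), with library size only (adjusted P = 0.141) and on log2(TPM + 1) (adjusted P = 0.314), and scaled to cardiomyocyte markers the value was 0.023 (adjusted P = 0.754).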

How the results depend on the processing

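At 6 weeks post-IR the 9 members called lower under TMM were 8 or 9 under DESeq2, limma voom with quality weights, upper quartile, removal of mitochondrially encoded genes, no filter and the Y-linked and atrial covariates. They were 1 with library size only, 1 when scaled to cardiomyocyte marker genes, 1 on log2(TPM + 1) and 1 on log2(TPM + 0.1), and 0 when an absolute log2 fold change above 1 was also asked for, and 1 member was called higher on either TPM measure. At 2 weeks 1 member was called lower, 4 by DESeq2, 2 with the atrial covariate, and 0 with library size only, on TPM or with the fold threshold, and 1 was higher on TPM. Between the times 1 was called lower, 4 by DESeq2 or voom, 3 with upper quartile or either covariate, and 0 with library size, marker scaling, TPM or the fold threshold, and 1 was higher with marker scaling (*Pln*, beside 42.3% of all genes). The cause of these changes in count was not tested. At 6 weeks the median of all genes was 0.24 with library size only, 0.32 with marker scaling and 0.29 on log2(TPM + 1).

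With the replicate number as a block, 8 members were lower at 6 weeks (*Cacna1c* lost, adjusted P = 0.0603), 1 at 2 weeks and 0 between the times, and *Sln* at 2 weeks turned to -0.18. Deviations of same-numbered mice from their group means had r of -0.0828 to 0.106 over 18 pairs. Of 18 mice, 3 were closest to their own number. These values cannot show that mice were unmatched. The block also left 0 network genes lower at 2 weeks, 0 higher between the times and 0 cardiomyocyte markers lower between the times.

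For the 78 other calcium genes, the 6-week counts of 17 lower and 6 higher became 2 and 24 with library size, 1 and 27 with marker scaling, 0 and 33 on log2(TPM + 1), 1 and 33 on log2(TPM + 0.1), and 1 and 2 with the fold threshold. The 2-week counts of 1 and 1 became 0 and 4 with library size, 0 lower with marker scaling, 0 and 14 or 15 on TPM, 2 lower with the atrial covariate and 0 and 0 with the fold threshold. Between the times 4 lower and 1 higher became 0 and 2, 0 and 27, 0 and 3 (either TPM), 0 and 0 (fold threshold) and 0 higher without the filter. Cardiomyocyte markers, 7 lower at 6 weeks, were 1 with library size and 0 with marker scaling, TPM or the fold threshold, with 1 higher on TPM. At 2 weeks 0 were lower, 1 by DESeq2, voom or the atrial covariate, with 1 higher on TPM, and between the times 1 was lower, 2 by DESeq2, voom or no filter and 0 with library size, marker scaling, TPM or the fold threshold. Marker scaling holds the summed counts of these same markers fixed, so its counts of 0 for them are not informative.

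Single members turned direction as follows. On log2(TPM + 1), 2-week values became 0.033 (*Atp2a2*), 0.24 (*Casq2*), 0.33 (*Cacna1c*), 0.14 (*Slc8a1*), 0.13 (*Camk2d*), 0.16 (*Jph2*) and -0.74 (*Sln*), 6-week values 0.049 (*Pln*), 0.24 (*Cacna1c*), 0.066 (*Camk2d*) and 0.049 (*Jph2*), and 6wk minus 2wk 0.13 (*Pln*). On log2(TPM + 0.1) these were the same to 0.01, with 0.049 (*Pln*), 0.067 (*Camk2d*) and 0.050 (*Jph2*) at 6 weeks, apart from *Jph2* at 2 weeks (0.17) and *Sln* (-1.43 at 2 weeks and 0.50 between the times). With marker scaling they became 0.0038 (*Casq2*) and 0.0061 (*Cacna1c*) at 2 weeks, 0.092 (*Cacna1c*), 0.095 (*Camk2d*) and 0.015 (*Jph2*) at 6 weeks, and 0.10 (*Atp2a2*), 0.29 (*Pln*), 0.086 (*Cacna1c*), 0.12 (*Camk2d*), 0.12 (*Trdn*) and 0.023 (*Jph2*) between the times. With library size only they became 0.12 (*Casq2*), 0.12 (*Cacna1c*), 0.082 (*Slc8a1*), 0.10 (*Camk2d*) and 0.10 (*Jph2*) at 2 weeks, 0.0077 (*Cacna1c*) and 0.021 (*Camk2d*) at 6 weeks and 0.093 (*Pln*) between the times. *Sln* turned to -1.42 and 0.27 (2 weeks, between the times) by voom and to -0.076, 0.17 and 0.24 with the atrial covariate. With *Casq2* in place of *Atp2a2* as the denominator, ratios turned for *Slc8a1* (-0.10 at 2 weeks, 0.38 between the times), *Ryr2* (0.076 at 6 weeks, 0.35 between the times) and *Camk2d* (-0.11 and 0.46), and with counts in place of TPM for *Camk2d* between the times (0.014).

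Without 1 mouse, members called lower ran from 1 to 2 at 2 weeks (*Ryr2* added without 6-week mouse 4, *Trdn* without 6-week mouse 1) and from 0 to 3 between the times. The other calcium genes ran from 0 to 1 lower and 1 to 2 higher at 2 weeks, 10 to 19 lower at 6 weeks, and 2 to 5 lower and 0 to 1 higher between the times, and cardiomyocyte markers from 0 to 1 at 2 weeks, 3 to 7 at 6 weeks and 0 to 1 between the times. Log2 fold changes that crossed 0 ran from -0.043 to 0.027 (*Pln*, between the times), -1.38 to 1.14 and -2.98 to 0.63 (*Sln*, 2 weeks and between the times), -0.18 to 0.089 (*Casq2*), -0.072 to 0.043 (*Cacna1c*) and -0.13 to 0.041 (*Slc8a1*) at 2 weeks. Ratios to *Atp2a2* that crossed 0 ran from -1.69 to 0.037 (*Sln*, 6 weeks), -0.71 to 1.70 (*Sln*, between the times), -0.039 to 0.056 (*Slc8a1*, 6 weeks) and -0.060 to 0.049 (*Camk2d*, between the times).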
